A study of Mus musculus with 5 samples.

Results

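The enolase genes Eno1, Eno1b, Eno2 and Eno3 were followed in RNA sequencing of differentiated mouse myoblasts. They are 4 of the 54232 genes in the deposited table, and each was found by its Ensembl identifier. The set was chosen on measured values of these samples, namely the increase of Eno1b, which stood among the largest in the mutant samples. The EID to WT differences of the 4 genes, and of the sum Eno1 plus Eno1b, are therefore given as a description, with standard errors but without p-values. Primary myoblasts were isolated with magnetic beads (a satellite cell kit and integrin α7 beads) from leg muscles of mice aged 6 to 8 weeks, on a mixed C57BL6 and 129SV background, and were kept for 72 h in medium with horse serum. This treatment takes myoblasts out of the cell cycle and lets them fuse into multinucleated myotubes. The cells were wild type (WT, 3 samples) or Elmo2EID/EID (EID, 2 samples). EID mice carry a knock-in substitution in the ELMO inhibitory domain of Elmo2 that favours the open conformation of the protein, and every cell of the animal carries it, not only muscle cells. The study lists the EID line as crossed to FLP mice on a B6 background, and whether the animals used here still carried FLP is not given in the sources used here. All samples were taken at the same time, so the course of differentiation was not measured.

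Enolase catalyses the step of glycolysis that turns phosphoglycerate into phosphoenolpyruvate, the substrate of pyruvate kinase. The enzyme is a dimer, mostly of like subunits, and mixed dimers also form. Eno1 encodes the α subunit that most tissues use, Eno2 the γ subunit known from neurons, and Eno3 the β subunit of skeletal and heart muscle. As muscle cells differentiate, the α subunit is known to give way to the β subunit, and this is the isozyme switch for which the family is known in muscle. Eno1b is a copy of Eno1 that the annotation lists as a protein-coding retrogene, that is, a gene that arose from a reverse-transcribed mRNA.

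On mouse build GRCm38, Eno1 (ENSMUSG00000063524) lies on chromosome 4 from 150236721 to 150248879, plus strand, and Eno3 (ENSMUSG00000060600) on chromosome 11 from 70657202 to 70662513, plus strand. Eno2 (ENSMUSG00000004267) is read from the minus strand, on chromosome 6 from 124760053 to 124769673. No other annotated gene overlapped any of the 4 enolase genes. The longest annotated transcripts of Eno1, Eno2 and Eno3 each had 12 exons, whereas that of Eno1b had 2. All 4 coding sequences were 1305 bases long and encoded 434 amino acids.

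The coding sequences showed how far the genes can be told apart by sequencing. Eno1 and Eno1b differed at 8 of 1305 coding bases (99.4% identity), and none of the 8 differences changed the encoded amino acid. The first 725 coding bases were the same in both genes. Eno1 differed from Eno2 at 325 bases (75.1% identity) and from Eno3 at 304 bases (76.7% identity), and Eno2 differed from Eno3 at 303 (76.8% identity). A stretch of 150 coding bases of Eno2 and Eno3 is printed here to show this distance between the neuronal and the muscle gene, over which short reads are readily assigned. It is the stretch that in Eno1 holds 4 of the 8 differences from Eno1b. It comprises the last base of exon 7 and 149 bases of exon 8. In Eno2 these are base 124766105 and bases 124763776 to 124763924 of chromosome 6, minus strand. In Eno3 they are base 70660882 and bases 70660997 to 70661145 of chromosome 11, plus strand. The sequences are from the GENCODE M21 transcripts on GRCm38, 5′ to 3′, and capitals mark the 35 bases at which the 2 genes differ.
Eno2: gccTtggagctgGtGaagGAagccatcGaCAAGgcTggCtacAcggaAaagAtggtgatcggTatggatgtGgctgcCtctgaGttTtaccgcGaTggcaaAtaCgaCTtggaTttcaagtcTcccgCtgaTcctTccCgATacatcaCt
Eno3: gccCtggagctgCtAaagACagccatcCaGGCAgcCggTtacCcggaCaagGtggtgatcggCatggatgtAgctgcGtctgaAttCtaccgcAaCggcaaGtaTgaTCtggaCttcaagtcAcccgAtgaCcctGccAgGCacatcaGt

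Because reads were 50 bases long, the transcripts were cut into all windows of 50 bases and these were searched in the annotated transcripts of the other genes. Of the 1978 windows of the Eno1 transcript, 583 (29.5%) had no exact match in Eno1b, and 550 (27.8%) had none in any other gene. Of the 1698 windows of the Eno1b transcript that aligned to Eno1 over the greatest length, 142 (8.36%) had no exact match in another gene. All 2746 windows of Eno2 and all 1515 windows of Eno3 were unique. Only uniquely mapped fragments entered the counts, so most of the length of Eno1b and of Eno1 could be counted only where the other read of the pair separated them. The division of fragments between Eno1 and Eno1b is therefore uncertain, and how the aligner placed them was not tested. The sources used here do not say which of the 2 strain backgrounds each sample carried at these loci, and a part of strain in the Eno1b values was not tested. The sum of both genes does not depend on that division, although it still depends on how many fragments were left out as not unique.

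**Figure D1:**
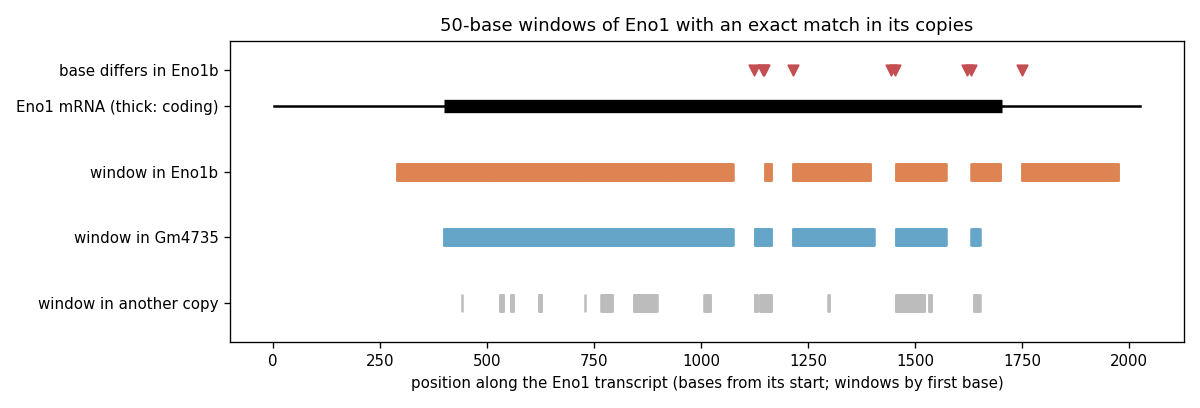
Map of the longest annotated Eno1 transcript, with position from its first base in bases on the x axis. It shows the coding part, the 9 bases at which Eno1b differs and the stretches whose windows of 50 bases match Eno1b exactly. Lower rows show the windows that match Gm4735, a further copy of Eno1, or another copy. The long matching stretch covers the first 725 coding bases, and all 9 differences lie after it, in exons 8, 9, 11 and 12.

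The samples held between 35021856 and 49381544 counted reads, and a count of 3 reads corresponded to between 2.65 and 3.73 normalized counts. Normalized counts are reads divided by the size factor of the sample. Elmo2 itself, in which the mutation does not remove the transcript, had 1642, 1539 and 1660 normalized counts in WT and 1441 and 1327 in EID (log2 fold change −0.22, SE 0.07, limma adjusted p = 0.226). Muscle identity was checked with 12 muscle markers, and all were detected in every sample. Their summed level lay between 1738357 and 2047013 normalized counts in WT and between 1740358 and 1952160 in EID. Over all genes, 404 of 18156 (2.23%) passed the threshold of 0.05 on the limma adjusted p, with 197 higher (1.09%) and 207 lower (1.14%) in EID. An unadjusted p under 0.05 was found for 15.2% of all genes tested, and this is the share against which such counts of list genes are to be read. In bulk RNA of a culture, fewer cells of a type and less RNA per cell cannot be told apart. P-values describe the spread between these samples. The series counts its groups in mice, and the study describes its primary cell experiments in general as using independent mice and different times. Neither is stated for the single samples used here.

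Eno3, the muscle subunit, was the most abundant enolase transcript in every sample, and its level was similar in both groups. It had 59370.0, 68172 and 69126 normalized counts in WT and 70199.6 and 57191 in EID. EID sample 1 was the highest of the 5 and EID sample 2 the lowest, so the groups overlapped. The means were 65556 ± 5378 (SD, n = 3) for WT and 63695 ± 9198 (SD, n = 2) for EID, with a log2 fold change of −0.05 (SE 0.12). The sign depended on the EID sample. The log2 fold change was −0.19 without EID 1 and 0.10 without EID 2.

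Eno1, the subunit of most tissues, was lower in EID. It had 16189, 16017 and 15427 normalized counts in WT and 13622 and 12997 in EID. Both EID samples were below all WT samples, and the samples within each group lay close together. The mean was 15877 ± 400 (SD, n = 3) for WT and 13310 ± 442 (SD, n = 2) for EID, which is 16.2% lower (log2 fold change −0.25, SE 0.06). Groups that do not overlap are frequent in a design of this size. They were seen for 32.6% of all genes tested, 15.9% with EID lower and 16.7% with EID higher.

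Eno1b (ENSMUSG00000059040; chromosome 18 from 48045335 to 48048412, plus strand) was close to the detection limit in WT and clearly present in EID. It had 6.18, 10.1 and 6.22 normalized counts in WT, from 7, 9 and 5 reads. In EID it had 1028 and 929 normalized counts, from 1149 and 1036 reads. The WT samples were thus only slightly above the level of 3 reads, and both EID samples were more than 90 times higher than any of them. The mean was 7.50 ± 2.25 (SD, n = 3) for WT and 978 ± 69.9 (SD, n = 2) for EID, a ratio of 130 and a log2 fold change of 6.88 (SE 0.26) on the log2(normalized count + 1) scale.

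Among the genes with non-overlapping groups, higher values in EID and a mean of at least 100 normalized counts, Eno1b was number 4 of 1976 by log2 fold change. The genes above it were Ftl2-ps (8.95), Rps13-ps1 (8.24) and Gm7292 (7.29), and those that followed were Eif3s6-ps2 (6.66), Gm3375 (5.97), BC002163 (5.91) and Gm8730 (5.64). Ftl2-ps, Rps13-ps1, Gm7292 and Eif3s6-ps2 had at most 3.53 normalized counts in any WT sample and entered the fit through their EID values alone. Their log2 fold changes, and the place of Eno1b among them, can therefore depend on the pseudocount. Of these 7 genes, 6 are annotated as processed pseudogenes, that is, as intronless copies of other genes, and Gm7292 as a long intergenic RNA. Eno1b was the only protein-coding gene among the first 8. The list is ordered by the same increase that chose Eno1b. The share of processed pseudogenes over all genes was not taken, so these counts only describe the list.

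**Figure D2:**
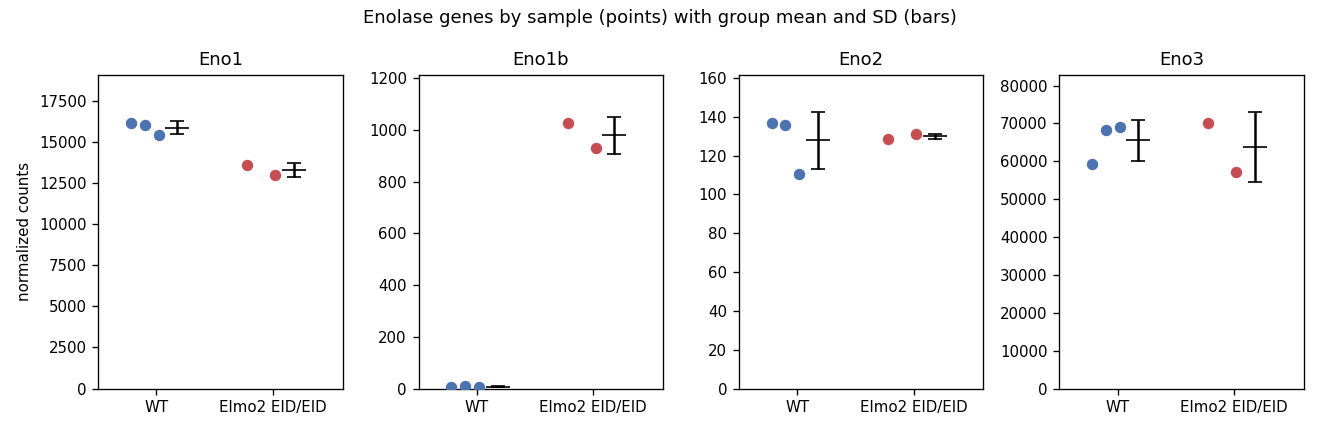
Normalized counts of Eno1, Eno1b, Eno2 and Eno3 in each sample, in a panel per gene with its own linear axis. Points are WT and EID (Elmo2EID/EID) samples, and bars give each group mean with SD. Eno1b lies near 6 to 10 in WT and near 929 to 1028 in EID, Eno1 is lower in both EID samples, and the groups overlap for Eno2 and Eno3.

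Eno1 and Eno1b together were still lower in EID, but less so than Eno1 alone. The sum was 16195, 16027 and 15433 normalized counts in WT and 14650.0 and 13926 in EID. Both EID samples were again below all WT samples. The mean was 15885 ± 401 (SD, n = 3) for WT and 14288 ± 512 (SD, n = 2) for EID, which is 10.1% lower (log2 fold change −0.15, SE 0.06). The Eno1b mean was 971 normalized counts higher in EID and the Eno1 mean 2568 lower, so that the gain of the copy amounted to 37.8% of the decrease of Eno1.

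The share of Eno1b in the reads of both genes was also taken within each library. In WT it was 0.0382% (Wilson 95% confidence interval 0.0185 to 0.0788%), 0.0630% (0.0331 to 0.1197%) and 0.0403% (0.0172 to 0.0943%). In EID it was 7.01% (6.63 to 7.42%) and 6.67% (6.29 to 7.07%). These shares restate the reads by which Eno1b was chosen and are a description. The intervals cover counting error only, since reads of amplified libraries are not independent molecules, and they leave out the spread between replicates.

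**Figure D3:**
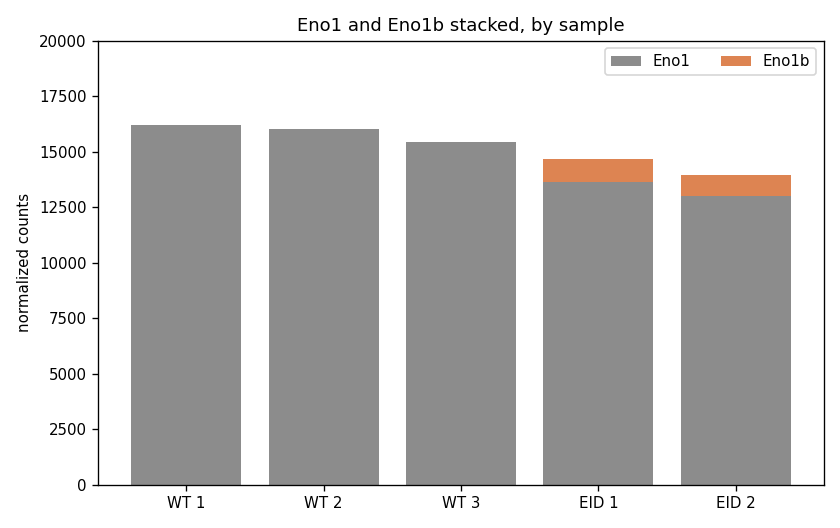
Normalized counts of Eno1 and of Eno1b stacked in a bar per sample from 0. The sums of the EID (Elmo2EID/EID) samples, 14650.0 and 13926, are below the WT sums. Eno1b is about 7% of the sum in EID and under 0.1% in WT.

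Other copies of Eno1 were examined because reads can be divided among them as well. The annotation held 13 further copies, all processed pseudogenes, of which 7 had no read in any sample and 2 passed the filter on low values. Gm5855, on chromosome 3 and 96.3% identical to Eno1, had 2.65, 4.49 and 1.24 normalized counts in WT and 106 and 130 in EID. It was at about the level of 3 reads or below in WT and far above it in both EID samples. No WT sample reached the 5 normalized counts of the filter, so the gene entered the fit through its EID values alone, and its log2 fold change of 5.05 (SE 0.45) is given without a p-value. Gm4735, on chromosome 2, is closer to Eno1 than is Gm5855, with 99.6% identity. It had 15.0, 6.73 and 9.94 normalized counts in WT and 7.16 and 7.17 in EID, and the groups overlapped (log2 fold change −0.44, SE 0.44, limma adjusted p = 0.708).

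Gm4735 carried the base of Eno1b at 5 of the 8 coding positions that separate Eno1b from Eno1 and the base of Eno1 at 3, and the same counts held for Gm5855. The sum over the 13 copies was 17.7, 13.5 and 12.4 normalized counts in WT and 119 and 143 in EID. With these copies added, the summed level was 9.31% lower in EID, and the gain of Eno1b with the copies amounted to 42.3% of the decrease of Eno1.

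Eno2, the neuronal subunit, was low in all samples. It had 137, 136 and 111 normalized counts in WT and 129 and 131 in EID. The EID values lay within the range of the WT values. The mean was 128 ± 14.9 (SD, n = 3) for WT and 130 ± 1.49 (SD, n = 2) for EID (log2 fold change 0.03, SE 0.16), and without WT 3 the log2 fold change was −0.07. Of 7 neuronal markers, 4 were expressed strongly enough to be tested, and Snap25 had no read in any sample. Their summed level was 543 to 813 normalized counts in WT and 503 to 637 in EID. None of the 4 passed by limma, and 2 had an unadjusted p under 0.05, with opposite signs (log2 fold change 1.82 for Stmn2 and −2.77 for Nefl). By edgeR 1 passed (Stmn2) and by DESeq2 2 (Stmn2 and Nefl), against 2.25% of all genes by edgeR and 5.34% by DESeq2. Eno4, a more distant relative known from sperm, had 10.6, 14.6 and 11.2 normalized counts in WT and 6.26 and 7.17 in EID (log2 fold change −0.76, SE 0.36, limma adjusted p = 0.395).

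Levels of different genes were compared per kb of transcript. Divided by the length of the longest annotated transcript, Eno3 was highest with 41916 ± 3439 normalized counts per kb in WT (SD, n = 3) and 40726 ± 5881 in EID (SD, n = 2). Eno1 followed with 7833 ± 197 and 6566 ± 218. In WT the third was Eno2 with 45.7 ± 5.31 and the last was Eno1b with 4.19 ± 1.26. In EID the lower places were exchanged, with Eno1b at 546 ± 39.0 and Eno2 at 46.5 ± 0.53. Within each group, every gene was separated from its neighbours in this order by more than the spread between samples. This order takes each gene as countable over its whole length. If only the windows of 50 bases without a match in another gene had been counted, Eno1b in WT would be at 52.8 ± 15.8 normalized counts per kb of such windows and Eno2 at 46.5 ± 5.41, which are not separated by their spread. Per kb of all annotated exons, the EID means were 2474 for Eno1, 521 for Eno1b and 27.6 for Eno2, in the same order.

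**Figure D4:**
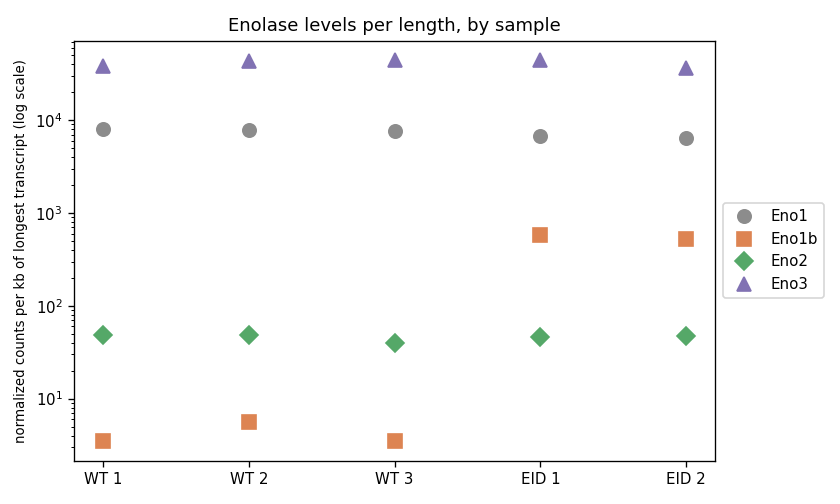
Level of each enolase gene in normalized counts per kb of its longest annotated transcript, on a logarithmic axis. A point stands for each WT and EID (Elmo2EID/EID) sample. The order is Eno3, Eno1, Eno2, Eno1b in WT and Eno3, Eno1, Eno1b, Eno2 in EID.

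The balance between the muscle subunit and Eno1 plus Eno1b did not separate the groups. With all annotated exons as length, the ratio of Eno3 to Eno1 plus Eno1b per kb was 11.3, 13.1 and 13.8 in WT and 13.1 and 11.3 in EID. With the longest transcript it was 4.75, 5.51 and 5.80 in WT and 6.15 and 5.28 in EID. The annotated exons of Eno1 add up to 5379 bases while its longest transcript has 2027, which lowers the Eno1 level on the first scale. The mean ratio was 12.8 ± 1.30 in WT (SD, n = 3) and 12.2 ± 1.28 in EID (SD, n = 2) on the first scale and 5.36 ± 0.54 and 5.71 ± 0.62 on the second. The groups overlapped on both scales, and the direction of the difference between the means was not the same on them. Eno3 made up 91.8, 92.9 and 93.2% of the summed enolase level per kb of all exons in WT and 92.9 and 91.8% in EID. On the scale of the longest transcript the share was 84.1 ± 1.41% in WT and 85.0 ± 1.39% in EID. Both scales count Eno1 as if it could be counted in full. Per kb of windows without a match in another gene, the ratio was 1.33, 1.54 and 1.62 in WT and 1.45 and 1.25 in EID, and the mean Eno3 share 59.8 ± 2.51% and 57.3 ± 2.53%. This scale takes single reads and leaves out fragments that only their other end separates. It can therefore understate the length over which Eno1 and Eno1b were countable. Eno3 thus had the highest level in both groups on each scale, but the size of its share depended on the scale.

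Per kb of all annotated exons, the muscle form also predominated for other enzymes. Their shares were not taken on the other scales, on which the Eno3 share was smaller. Pgam2, the muscle phosphoglycerate mutase that acts just before enolase, made up 98.2, 98.7 and 98.6% of Pgam1 plus Pgam2 per kb in WT and 98.6 and 98.5% in EID. Pfkm, the muscle phosphofructokinase, made up 97.7, 98.6 and 98.0% of its 3 isozymes in WT and 98.4 and 97.8% in EID. The groups overlapped for both enzymes. Creatine kinase, which buffers ATP in muscle, did separate the groups, with Ckm at 81.0, 84.5 and 85.7% of Ckm plus Ckb in WT and 90.2 and 92.3% in EID. Ckb had 6386, 5826 and 3987 normalized counts in WT and 3480 and 2920 in EID, with EID lower and no overlap (log2 fold change −0.73, SE 0.20, limma adjusted p = 0.138). Ckm had a log2 fold change of 0.28 (limma adjusted p = 0.339). Of 9 such isozyme genes, none passed by limma, 2 had an unadjusted p under 0.05, none passed by edgeR and 2 passed by DESeq2 (Ckb and Aldoc). The shares of all genes were 2.23% by limma, 15.2% at an unadjusted p under 0.05, 2.25% by edgeR and 5.34% by DESeq2. Groups without overlap were seen for 44.4% of the 9 genes, 1 with EID higher and 3 with EID lower, against 32.6% of all genes.

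No glycolysis gene around enolase passed the limma test. Of 22 transporters and enzymes of the pathway other than enolase, 21 were tested, and Pklr, the pyruvate kinase of liver and red blood cells, had no read in any sample. Against the 0 genes that passed stood 2.23% of all genes. Of the 21, 1 had an unadjusted p under 0.05, none passed by edgeR and 1 passed by DESeq2. The median log2 fold change was −0.04, against 0.01 over all genes tested. Groups without overlap were seen for 6 genes (28.6%, against 32.6% of all genes). Of these, 3 were higher in EID, namely the glucose transporter Slc2a4, Gapdh and the lactate transporter Slc16a3, and 3 were lower, namely Aldoa, Aldoc and Pkm.

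Aldoc, the aldolase known from brain, had the log2 fold change furthest from zero among the tested genes of the pathway other than enolase. It had 67.1, 112 and 74.6 normalized counts in WT and 34.9 and 35.9 in EID (log2 fold change −1.20, SE 0.27, limma adjusted p = 0.0839, DESeq2 adjusted p = 0.0183). Aldoa, the muscle aldolase, was far more abundant, with 173086 to 191869 normalized counts over the 5 samples, and had a log2 fold change of −0.09 (SE 0.09, limma adjusted p = 0.673). Pkm, the pyruvate kinase that uses the product of enolase, had 93887, 92921 and 97841 normalized counts in WT and 82202 and 87492 in EID. Its EID values were below all WT values (log2 fold change −0.16, SE 0.08, limma adjusted p = 0.383). Gapdh, which acts earlier in the pathway, had a log2 fold change of 0.11 (SE 0.07, limma adjusted p = 0.542).

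**Figure D5:**
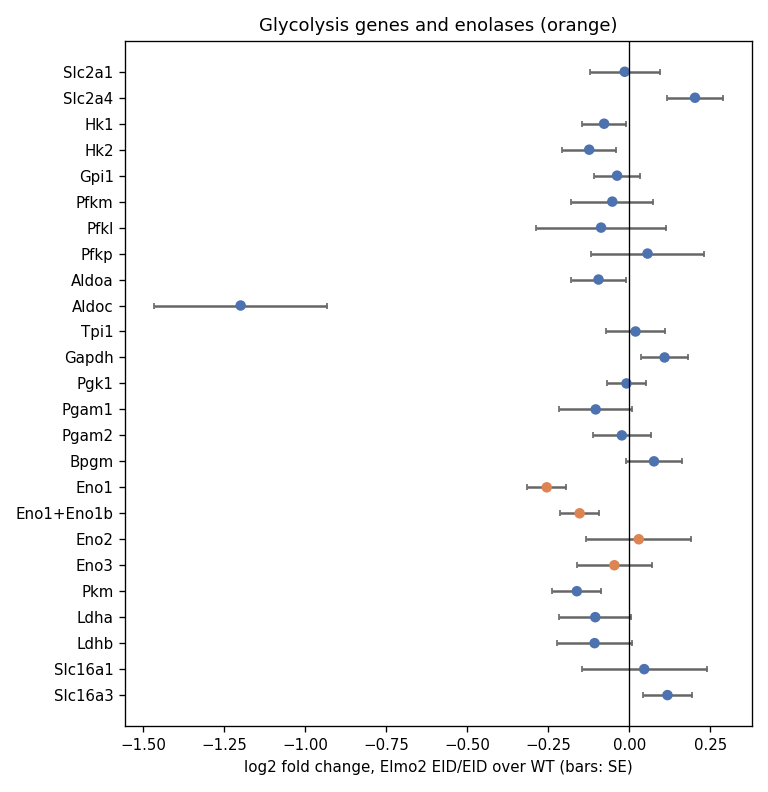
Log2 fold change (EID over WT) of the glycolysis genes and of Eno1, Eno1 plus Eno1b, Eno2 and Eno3, with bars of 1 standard error from the limma fit. Eno1b alone is not drawn, because its value of 6.88 lies outside the axis. The values of the list lie between −1.20 (Aldoc) and 0.20 (Slc2a4). Those of Eno1, Eno2 and Eno3 are −0.25, 0.03 and −0.05, and that of Eno1 plus Eno1b is −0.15.

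The genes most like each enolase gene across the 5 samples were found by the distance between log2 values centred on their mean, among 11219 genes. Eno1b was nearest to Eif3s6-ps2 (distance 0.79), Gm3375 (1.05) and BC002163 (1.19), which lie on chromosomes 18, 7 and 16. Eno1 was nearest to Zdhhc20 (0.018), Hnrnpa0 (0.028) and 2210016L21Rik (0.038), and Eno3 to Cacng6 (0.040), Tmem205 (0.048) and Rabggta (0.050). Eno2 was nearest to Stag1 (0.033), Npnt (0.038) and Palm2 (0.049). With 5 samples, close neighbours such as those of Eno1, Eno2 and Eno3 are easily found, whereas no gene lay closer to Eno1b than 0.79. The distances are a description of these libraries.

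Markers of muscle and of other cell types were measured in the same samples. Pax7, the transcription factor of satellite cells, fell from 922, 942 and 837 normalized counts in WT to 414 and 298 in EID (log2 fold change −1.35, SE 0.15, limma adjusted p = 0.0076; without EID 2 adjusted p = 0.0544). It was the only one of the 12 muscle markers that passed, against 2.23% of all genes, and 7 of the 12 (58.3%, against 32.6% of all genes) had groups without overlap, 3 with EID higher and 4 with EID lower. Myf5, a myogenic factor that is also active in satellite cells, had 3122, 2188 and 4399 normalized counts in WT and 5152 and 5254 in EID, with EID higher and no overlap (log2 fold change 0.74, SE 0.26, limma adjusted p = 0.237). The summed level of 8 endothelial markers was 216 to 917 normalized counts in WT and 2275 to 3503 in EID. None of the 8 passed by limma or edgeR, 5 had an unadjusted p under 0.05, against 15.2% of all genes, and 1 (Tie1) passed by DESeq2, against 5.34%. Of the 8, 7 were higher in both EID samples than in all WT samples, against 16.7% of all genes, and Cldn5 was lower in both, with 4.47 and 1.79 normalized counts against 6.18, 4.49 and 4.97. The sum of 8 Schwann cell markers was 202 to 542 in WT and 459 to 636 in EID, that of 6 fibro-adipogenic markers 190 to 1407 and 1037 to 1107, and that of 5 macrophage markers 32.3 to 36.2 and 52.0 to 68.0. Of their 7, 5 and 4 tested genes none passed by limma, edgeR or DESeq2, and 2 Schwann cell markers and 1 macrophage marker had an unadjusted p under 0.05. The fibro-adipogenic marker Dcn entered the fit through its EID values alone and is given without a p-value, with 1.77, 2.24 and 4.97 normalized counts in WT and 8.05 and 17.9 in EID. The part of these cells in the levels of Eno1, Eno1b and Eno2 was not tested.

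The genes beside the enolase loci were looked at for differences shared with their neighbourhood. Within 1 Mb, 21 protein-coding genes were tested around Eno1, 2 around Eno1b, 37 around Eno2 and 62 around Eno3. None of these 122 genes passed by limma, against 2.23% of all genes, and 21 had an unadjusted p under 0.05, against 15.2% of all genes. These were 9 of the 21 around Eno1, 0 of the 2 around Eno1b, 4 of the 37 around Eno2 and 8 of the 62 around Eno3. By edgeR 2 passed, namely Errfi1 near Eno1 and Cxcl16 near Eno3. By DESeq2 5 passed, namely Ctnnbip1 and Errfi1 near Eno1, Vwf near Eno2, and Kctd11 and Cxcl16 near Eno3. Over all genes 2.25% passed by edgeR and 5.34% by DESeq2. Around Eno1 15 of the 21 genes had groups without overlap (71.4%, against 32.6% of all genes), 9 with EID higher and 6 with EID lower, and the median log2 fold change was 0.10. Around Eno2 this was so for 21.6% and around Eno3 for 38.7%. Of the 2 neighbours of Eno1b, 1 was lower in EID without overlap (50.0%) and the groups overlapped for the other.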

How the data were processed

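RNA of 5 samples was enriched for poly-A RNA, and stranded libraries were sequenced in paired reads of 50 bases. Per the study's methods and the submitters' processing notes, reads were checked with FastQC 0.11.5, aligned untrimmed to GRCm38 with STAR 2.5.1b, and uniquely mapped fragments were assigned to genes by featureCounts 1.4.6 in its reverse-stranded mode. The deposited signal values are gene counts that the authors divided by DESeq2 1.34.0 size factors. Whole reads were recovered from them (100.0% of positive values were whole within 0.01 read). Identifiers were matched to GENCODE M21 (54165 of 54232), from which gene lengths and copies were taken. The methods name an older Ensembl release for the counting, so the exons that were counted can differ from those lengths. An adjusted p is from limma 3.58.1 (R 4.3.3; empirical Bayes with trend, Benjamini-Hochberg over 18156 genes) on log2(value + 1), for genes that reached 5 normalized counts in 1 sample or more. The count tests edgeR 4.0.16 (quasi-likelihood) and DESeq2 1.42.0 (Wald) were run on the recovered reads and passed 408 (2.25%) and 969 (5.34%) genes. The fit was tested on simulated data. Copies were found with blastn 2.17.0, at a cover of at least 50%. The members and gene lists, and the tests, were chosen with earlier results of these data known. Genes named as most alike are the 3 nearest to each member, and listed genes are named where they passed a test, had groups without overlap or belong to the step beside enolase. A count of 3 reads in a sample was taken as the floor, and confidence intervals are Wilson at 95%.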

Additional observations from a re-analysis of the deposited data

How the results depend on the processing

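The 404 genes that passed over all genes became 969 by DESeq2 (413 higher, 556 lower), 155 with all genes above 0 tested (98 higher, 57 lower) and 144 by limma without trend (97 higher, 47 lower). Leaving out a sample gave 54 to 349: 112 without EID 1, 54 without EID 2, 150 without WT 1, 209 without WT 2 and 349 without WT 3. Replicate numbers 1 and 2 occur in both groups, but the deviations of same-numbered samples correlated at −0.20 across 15107 genes, so the numbers were not taken as pairs. WT 3 has no partner and was left out of both block fits, which thus change 2 choices at once. The replicate block over the other 4 samples left 229 genes past the threshold, against 349 without WT 3 alone. Crossing the numbers of these 4 samples, an alternative chosen after seeing the data, gave 1081. In the replicate block fit, again without WT 3, the log2 fold changes were the same as without WT 3 alone, namely −0.28 for Eno1, 6.78 for Eno1b, −0.07 for Eno2, −0.01 for Eno3 and −0.17 for Eno1 plus Eno1b, and Ckb passed (limma adjusted p = 0.0148). None of the glycolysis genes passed in any limma fit or by edgeR, and 1 by DESeq2. The count of 0 genes within 1 Mb became 5 by DESeq2, 2 by edgeR, 1 each with equal totals, without trend, with a pseudocount of 5 and with quantile normalization, 5 with the crossed numbers, 3 within 2 Mb, and 0 to 2 without a sample (2 without WT 3). The cause of these shifts was not tested.

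Leaving out each sample gave log2 fold changes of −0.29 to −0.22 for Eno1, 6.77 to 7.09 for Eno1b, −0.07 to 0.08 for Eno2, −0.19 to 0.10 for Eno3 and −0.19 to −0.12 for Eno1 plus Eno1b. The Eno1b value was 6.31 with a pseudocount of 5. The Eno3 share over all samples, 92.5% per kb of all exons, was 84.4% with the longest transcript, 80.8% both with the coding length and without a length, and 58.8% per kb of windows without a match in another gene, an alternative chosen after seeing the data. Per kb, the Eno1b share of Eno1 plus Eno1b was 0.135% in place of 0.047% in WT and 17.4% in place of 6.84% in EID. Windows of Eno1 without an exact match in Eno1b made up 41.4% at 100 bases, and 44.3% when either end of an average fragment could differ, which was chosen after seeing the data. The 5 samples and the 5 to 9 reads of Eno1b in each WT sample limit the precision of its fold change.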
